A study of Homo sapiens with 3 samples.

Results

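Peaks of histone H3 lysine 4 trimethylation (H3K4me3) that lay inside genes, away from any gene end, were examined in ALL-SIL, a human line grown from a T-cell acute lymphoblastic leukaemia (T-ALL). A peak was taken if it was shorter than 4000 bp and overlapped the span of a protein-coding or lncRNA gene. It also had to stay more than 1 kb clear of every protein-coding and lncRNA gene end, outside and inside the gene, on the main chromosomes. Of the 11100 deposited H3K4me3 peaks, 1408 (12.7%, exact 95% interval 12.1 to 13.3) met this rule. Another 9017 peaks lay at gene ends, 622 lay between genes, and 37 lay in gene bodies but were 4 kb or longer.

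The study mapped H3K4me3 and H3K4me1 by chromatin immunoprecipitation and sequencing (ChIP-seq) in untreated ALL-SIL cells, with 1 library per mark and 1 input DNA library that served both. After the caller's filtering, 30823016 H3K4me3 tags, 34813455 H3K4me1 tags and 18859011 input tags remained. A single cell line with 1 library per mark gives no replicate error, so no p-value was computed, and exact 95% intervals cover counting error only. Of the 38 T-lineage genes listed for the check of the cell line, 23 (60.5%) had H3K4me3 at an end, among them CD3D, CD3E, CD7 and LCK. The others, among them CD2, CD5, CD28, GATA3, TCF7 and IL7R, had it at neither end, as did 50.6% of all protein-coding genes. None of 18 myeloid markers had H3K4me3 at an end, and 3 of 15 B-lineage markers did.

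H3K4me3 is laid down at active promoters, most strongly over unmethylated CpG islands, where CXXC-domain proteins bring the SET1 and MLL methyltransferases to DNA. Many genes carry a further promoter inside their span, from which a transcript with another first exon, and often a protein with another N-terminus, is made. H3K4me1 marks enhancers and the shoulders of promoters, and it is usually depleted where trimethylation is highest.

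For internal peaks that contained an annotated start, the sequence around that start could be read. Peaks without a listed start have no sequence here. Below are 300-base windows, 250 bases before and 50 after an annotated start, read 5′ to 3′ on the gene's strand from RefSeq GRCh38.p14, with every CG dinucleotide in capitals. RUNX1, STAT5B, SATB1, FOXP1 and PIK3R1 are shown because each has an internal start inside a gene-body H3K4me3 peak, and the last 3 also have an internal start in the same gene outside any H3K4me3 peak. INPP4B is shown as the exception, a CpG-poor internal start inside a peak. The windows inside peaks are RUNX1 at chr21:34888650-34888949 (minus strand), STAT5B at chr17:42276342-42276641 (minus), SATB1 at chr3:18425290-18425589 (minus), FOXP1 at chr3:71064875-71065174 (minus), PIK3R1 at chr5:68288269-68288568 (plus) and INPP4B at chr4:142405397-142405696 (minus). The windows outside peaks are SATB1 at chr3:18438687-18438986, FOXP1 at chr3:71543508-71543807 and PIK3R1 at chr5:68292327-68292626, on the same strands as above.
RUNX1, inside a peak: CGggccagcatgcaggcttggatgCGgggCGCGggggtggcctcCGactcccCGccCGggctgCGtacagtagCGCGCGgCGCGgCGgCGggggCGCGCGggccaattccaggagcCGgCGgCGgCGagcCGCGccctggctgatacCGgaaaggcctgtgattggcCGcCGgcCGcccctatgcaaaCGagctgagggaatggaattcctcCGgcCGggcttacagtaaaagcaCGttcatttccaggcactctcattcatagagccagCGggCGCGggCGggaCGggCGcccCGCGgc
STAT5B, inside a peak: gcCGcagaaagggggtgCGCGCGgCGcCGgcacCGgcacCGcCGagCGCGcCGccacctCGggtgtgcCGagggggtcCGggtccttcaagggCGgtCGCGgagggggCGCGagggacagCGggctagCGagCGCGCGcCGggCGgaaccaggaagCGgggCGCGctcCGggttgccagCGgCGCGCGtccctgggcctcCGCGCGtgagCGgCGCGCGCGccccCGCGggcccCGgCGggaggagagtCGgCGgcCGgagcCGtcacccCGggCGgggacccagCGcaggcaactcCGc
SATB1, inside a peak: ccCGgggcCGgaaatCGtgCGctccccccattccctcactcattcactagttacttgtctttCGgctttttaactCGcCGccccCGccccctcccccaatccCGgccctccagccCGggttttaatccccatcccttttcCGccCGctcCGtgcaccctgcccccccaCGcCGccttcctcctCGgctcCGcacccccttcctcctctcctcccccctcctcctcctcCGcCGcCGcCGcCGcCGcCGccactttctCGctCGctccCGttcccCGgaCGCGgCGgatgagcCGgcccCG
SATB1, outside any peak: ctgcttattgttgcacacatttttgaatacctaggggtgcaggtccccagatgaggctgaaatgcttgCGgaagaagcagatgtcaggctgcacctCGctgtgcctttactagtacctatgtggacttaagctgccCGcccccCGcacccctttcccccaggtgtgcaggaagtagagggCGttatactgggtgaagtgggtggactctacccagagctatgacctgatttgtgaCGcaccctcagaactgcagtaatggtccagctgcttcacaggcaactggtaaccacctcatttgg
FOXP1, inside a peak: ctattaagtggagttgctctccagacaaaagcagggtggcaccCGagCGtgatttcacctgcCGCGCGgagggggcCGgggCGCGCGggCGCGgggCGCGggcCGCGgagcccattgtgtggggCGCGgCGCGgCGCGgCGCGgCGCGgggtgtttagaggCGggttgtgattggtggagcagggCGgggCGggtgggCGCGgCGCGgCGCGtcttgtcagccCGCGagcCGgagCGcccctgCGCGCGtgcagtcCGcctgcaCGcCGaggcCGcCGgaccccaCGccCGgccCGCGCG
FOXP1, outside any peak: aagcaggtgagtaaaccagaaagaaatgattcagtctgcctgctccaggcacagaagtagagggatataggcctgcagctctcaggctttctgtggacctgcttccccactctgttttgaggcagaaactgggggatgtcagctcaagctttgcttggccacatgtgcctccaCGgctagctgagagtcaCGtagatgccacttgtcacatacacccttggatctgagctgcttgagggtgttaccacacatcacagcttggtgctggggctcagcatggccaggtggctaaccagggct
PIK3R1, inside a peak: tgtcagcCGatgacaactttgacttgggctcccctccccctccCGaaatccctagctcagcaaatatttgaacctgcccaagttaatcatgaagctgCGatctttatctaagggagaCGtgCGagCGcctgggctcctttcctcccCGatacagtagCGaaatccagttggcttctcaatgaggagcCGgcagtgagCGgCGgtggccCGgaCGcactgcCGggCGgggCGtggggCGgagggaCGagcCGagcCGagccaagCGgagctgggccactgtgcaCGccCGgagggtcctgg
PIK3R1, outside any peak: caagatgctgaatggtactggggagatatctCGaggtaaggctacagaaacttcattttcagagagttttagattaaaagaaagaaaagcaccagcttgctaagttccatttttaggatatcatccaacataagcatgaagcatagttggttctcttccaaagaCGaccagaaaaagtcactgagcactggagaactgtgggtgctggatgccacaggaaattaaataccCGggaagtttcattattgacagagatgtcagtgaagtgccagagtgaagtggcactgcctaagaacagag
INPP4B, inside a peak: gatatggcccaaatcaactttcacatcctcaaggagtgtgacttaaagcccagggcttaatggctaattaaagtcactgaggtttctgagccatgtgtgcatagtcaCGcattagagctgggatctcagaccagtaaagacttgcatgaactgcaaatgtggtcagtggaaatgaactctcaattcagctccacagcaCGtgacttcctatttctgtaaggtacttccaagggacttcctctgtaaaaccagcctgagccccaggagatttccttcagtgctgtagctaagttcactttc

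The marked windows of RUNX1 and STAT5B held 40 and 55 CG dinucleotides. Where a gene had more than 1 internal start of a kind, a fixed choice was printed. It was the marked start of highest and the unmarked start of lowest observed to expected CpG ratio. FOXP1 had 4 unmarked internal starts and PIK3R1 2, whereas SATB1 had 1 of each kind. In SATB1 the marked internal start held 33 and the unmarked one 6. The printed marked and unmarked windows held 51 and 2 in FOXP1, and 23 and 3 in PIK3R1. The INPP4B start held 2. These windows give the pattern and its exception, and the counts over all internal starts follow.

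The RefSeq table of starts listed 35097 distinct starts, of which 33.3% lay inside an H3K4me3 peak. It listed none on chromosome 8, so the 70 internal peaks there were not compared with starts. Of the other 1338 internal peaks, 523 (39.1%, 36.5 to 41.8) contained an annotated start, 120 (8.97%) had a start within 1 kb, and 695 (51.9%, 49.2 to 54.7) had none within 1 kb. In all 523 peaks the start belonged to a gene that hosted the peak. This is no separate result, since a gene whose start lies inside a peak also overlaps that peak. Of the 523 peaks, 103 held 2 or more starts. The table is not complete, since 15843 of the 19322 protein-coding genes off chromosome 8 had a start in it. Among the 1150 peaks whose host genes were all in the table, 519 (45.1%) contained a start.

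The peaks with a start lay mostly downstream of it. In the 520 peaks whose starts were all on 1 strand, the peak midpoint lay downstream of the first start in 446 (85.8%), by a median of 287.5 bp over the 520 (quartiles 91 and 526.25). Peaks without a start nearby were shorter, with a median of 689 bp against 1384 bp for those with a start inside. The 120 peaks with a start within 1 kb but none inside had a median of 696 bp. A longer peak has more room to contain a start, so length is not independent of how these classes were set. For comparison, peaks at gene ends had a median length of 1484 bp. The median pileup, the caller's mean fragment coverage over the peak, was 13.5 with a start and 12.6 without.

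**Figure D1:**
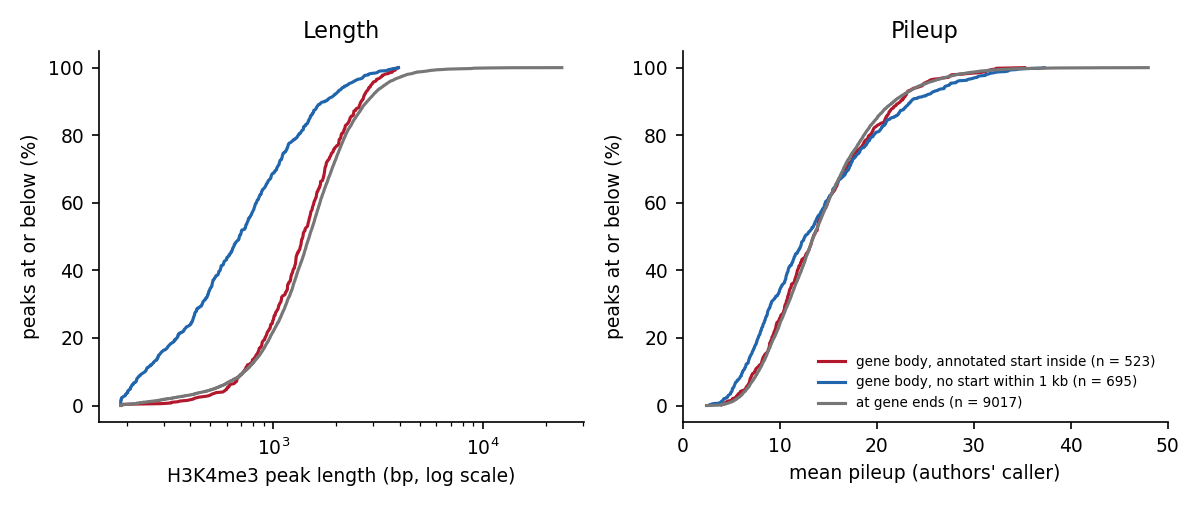
Cumulative share of H3K4me3 peaks (%) by peak length in bp on a log scale (left) and by mean pileup from the authors' caller (right), for gene-body peaks with an annotated start, gene-body peaks with no start within 1 kb, and peaks at gene ends. The length curve of the peaks with a start runs beside that of gene-end peaks (medians 1384 and 1484 bp), the curve without a start lies to the left (689 bp), and the pileup curves run close together.

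Read from the side of the starts, 5367 starts (15.3%) lay inside genes and away from every gene end. Of these internal starts, 1016 (18.9%) lay inside an H3K4me3 peak of any kind and 667 (12.4%) inside one of the 1408 internal peaks. At gene ends 35.9% of 29730 starts were marked.

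Marked and unmarked internal starts differed in base composition. The 667 starts inside the internal peaks had a median GC content of 66.0%, 27 CG dinucleotides per window and an observed to expected CpG ratio of 0.807. The 4351 internal starts outside H3K4me3 had medians of 50.7%, 5 and 0.294. Marked starts at gene ends had 66.0%, 27 and 0.865, close to the internal marked starts. The windows of SATB1 (ratio 1.16 marked, 0.278 unmarked) and FOXP1 (1.17 and 0.0917) printed above follow this difference, and INPP4B (0.128, marked) goes against it. Over the 4 unmarked internal starts of FOXP1 the median ratio was 0.247.

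The share of internal starts with H3K4me3 rose with the CpG ratio, from 2.87% (43 of 1500) at a ratio under 0.2 to 55.8% (134 of 240) at a ratio of 1 or more. In the same classes, starts at gene ends went from 1.12% to 73.0%. From a ratio of 0.4 upwards the share was lower for internal starts in each class, for example 39.9% (36.3 to 43.6) against 52.8% (51.5 to 54.2) between 0.6 and 0.8. Below 0.2 it was higher inside genes, at 2.87% (2.08 to 3.84) against 1.12% (0.869 to 1.41). H3K4me1 peaks covered 14.8% of internal starts with a ratio under 0.2, 18.6% between 0.2 and 0.4 and 15.3% between 0.4 and 0.6. Above that the share was lower in each class, at 10.0%, 6.28% and 1.67%.

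**Figure D2:**
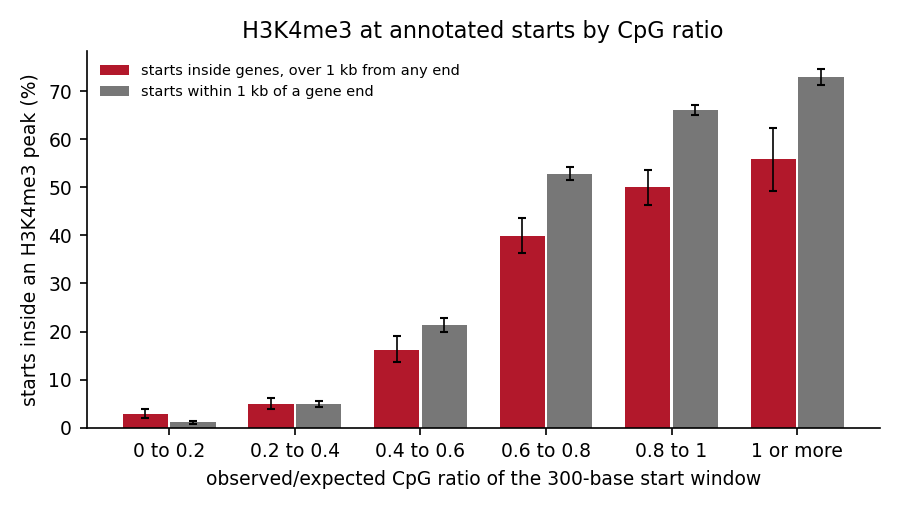
Share of annotated starts inside an H3K4me3 peak (%) by observed to expected CpG ratio of the 300-base start window, for starts inside genes and for starts within 1 kb of a gene end, with exact 95% intervals as error bars. Both rise with the CpG ratio, internal starts from 2.87% to 55.8% and end starts from 1.12% to 73.0%.

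The same difference was seen between starts of 1 gene. This was read in 139 genes with both a start inside an internal peak and an internal start outside H3K4me3. By the median CpG ratio per gene and kind of start, marked starts were higher in 121 genes and lower in 18. The medians over these genes were 0.717 for marked and 0.304 for unmarked starts. CD8A, which encodes the alpha chain of the CD8 coreceptor, had 0.838 at its marked and 0.235 at its unmarked internal start. PAX6, an eye and brain developmental regulator, differed less, with 0.649 at its marked start and a median of 0.543 over 7 unmarked ones.

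Short sequence motifs were counted on both strands as exact letters. The SP/KLF box GGGCGG was present in 70.3% of starts inside the internal peaks, 25.9% of unmarked internal starts and 44.9% of all starts. The ETS motif CCGGAAG stood in 15.0%, 3.29% and 10.3%, and it reached 23.6% at marked gene-end starts. The YY1 core ATGGCGG was found in 7.50% of marked internal starts, 1.63% of unmarked ones, 5.55% of all starts and 12.6% of marked gene-end starts. These 3 motifs all contain CG dinucleotides.

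The TATA box letters TATAAA went the other way, at 3.15% of marked and 15.5% of unmarked internal starts, against 11.5% of all. Of the letters bound by T-lineage factors, the RUNX motif TGTGGT stood in 9.30% of marked, 15.6% of unmarked and 13.1% of all starts. The GATA motif AGATAA stood in 4.05%, 14.7% and 10.3%, and the E-box CAGCTG in 16.8%, 20.3% and 17.9%. The CCAAT box, written CCAAT, differed little, at 35.5%, 31.9% and 34.6%. A match describes letters in a window and not a bound site.

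Internal peaks sat mostly in long genes. The rule itself favours such genes, since they hold more sequence over 1 kb from an end. A protein-coding gene hosted 1283 of the 1408 peaks (91.1%), and 125 (8.88%) lay only in lncRNA genes. In all, 1162 protein-coding genes held an internal peak, 5.8% of 20037, and 158 lncRNA genes did, 0.863% of 18303. The share of protein-coding genes was 0.966% below 10 kb of gene length, 4.51% from 10 to 30 kb, 8.13% from 30 to 100 kb, 12.6% from 100 to 300 kb and 11.3% above. The median host was 63.6 kb long, against 24.1 kb for all protein-coding genes.

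The median distance from an internal peak to the nearest gene end of any protein-coding or lncRNA gene was 8.39 kb (quartiles 3.53 and 21.5), where the rule fixes the minimum at 1 kb. Between 1 and 2.5 kb lay 235 peaks (16.7%), 118 (8.38%) lay 50 kb or more from an end, and 26 lay 100 kb or more. The peaks just inside the limit were in SSPN at 1002 bp, HIVEP1 at 1003 bp and MUC8 at 1004 bp, and those just outside were at WDR74 and CACNB3, both at 999 bp. At the length limit RUNX1 stood just inside at 3951 bp and MX2 just outside at 4043 bp.

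Position along the gene could be read for 1044 peaks with 1 protein-coding host of known strand. From the 5′-most to the 3′-most quintile of the gene these fell as 28.3%, 27.0%, 21.1%, 15.6% and 8.05%. Peaks with a start leaned further toward the 5′ side, with 32.1% in the 5′-most and 4.37% in the 3′-most quintile of 504 peaks. For the 428 peaks without a start nearby the same quintiles held 22.2% and 13.1%. Median distances from the host's 5′ end were 13.6 kb with a start and 28.6 kb without.

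**Figure D3:**
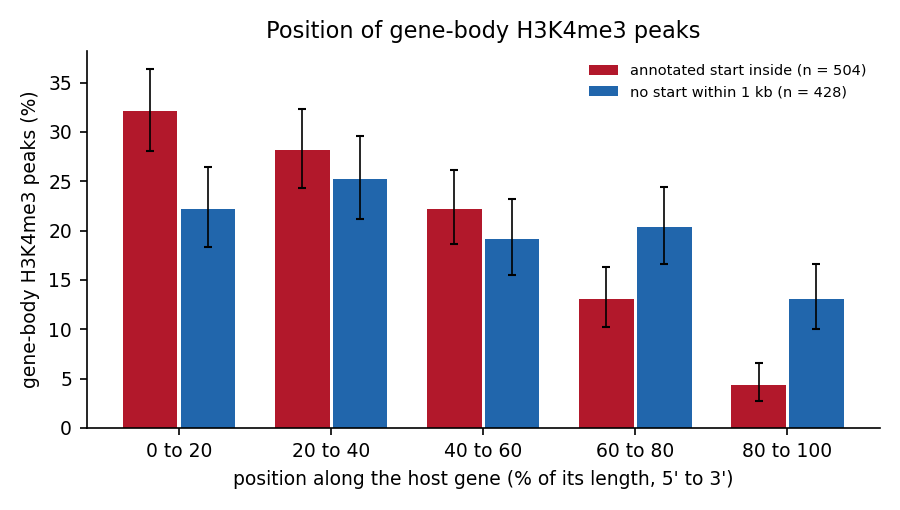
Share of gene-body H3K4me3 peaks (%) in each quintile of the host gene's length, ordered 5′ to 3′, for 504 peaks with an annotated start and 428 with no start within 1 kb, with exact 95% intervals as error bars. Peaks with a start fall from 32.1% to 4.37% along the gene, and those without fall from 22.2% to 13.1%.

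The internal peaks were mostly apart from other H3K4me3. The median gap to the next H3K4me3 peak was 24.1 kb, and 46 peaks (3.27%) had another within 1 kb. Of the 1044 peaks of known orientation, 38 lay within 2.5 kb of a 5′ end that itself carried H3K4me3. Where another peak lay within 5 kb, at 273 internal peaks, it was at a gene end for 187 and in a gene body for 85.

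Pooled over gene lengths, hosts lacked H3K4me3 at both ends slightly less often than protein-coding genes in general. Of the 1162 protein-coding hosts, 530 (45.6%, 42.7 to 48.5) had H3K4me3 at neither end, against 50.6% of all protein-coding genes. The share of hosts was 71.0% (369 of 520) with H3K4me3 peaks of −log10 q of at least 10 only, a limit that also removes gene-end peaks. It was 39.7% with windows of 2.5 kb. The share over all protein-coding genes was not computed at these settings, so neither value can be set against it. By gene length, 4.78% of genes with neither end marked and 4.28% of end-marked genes held an internal peak at 10 to 30 kb. At 30 to 100 kb these shares were 9.22% and 7.38%. The order was the other way below 10 kb (0.733% and 1.35%), at 100 to 300 kb (10.8% and 14.5%) and above (6.91% and 22.0%). In the 504 peaks with a start and a host of known strand, the host's 5′ end was marked in 254 and unmarked in 250. For peaks without a start the 5′ end was marked in 259 of 428 (60.5%). The background for 5′ ends was 51.1% of 15843 protein-coding genes.

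The host without end H3K4me3 and with the highest fold enrichment over local background was PAX6 (chr11:31809927-31811101). Its peak was 1175 bp long, contained an annotated start, and had a fold of 15.7 and a pileup of 35.3. SMAP2, an Arf GTPase-activating protein, had a fold of 11.4 over a start 37.9% of the way along the gene. MRPL44, a mitochondrial ribosomal protein gene, had 11.5 over a start at 41.3%. In all 3 genes the mark lay on an internal annotated start and on neither end of the gene.

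Others in the same class had no listed start nearby. IGSF9B, a cell adhesion gene with no start in the table, carried a 250-bp peak of fold 14.5, PSD2 a 323-bp peak of fold 12.7, KCNA2, a voltage-gated potassium channel gene, a 202-bp peak of fold 11.1, and ATP10A, a phospholipid transporter gene, a 641-bp peak of fold 11.3. Each of these 4 peaks overlapped H3K4me1 and had it on both sides. UBE2L3, a ubiquitin-conjugating enzyme gene, had a 1360-bp peak of fold 11.1 that no H3K4me1 peak overlapped. TOP1MT and OXR1, with folds of 13.5 and 13.1, are on chromosome 8 and were not compared with starts.

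Genes known to act in T cells were examined by list. Of 38 T-lineage genes, 9 held an internal peak (23.7%, 11.4 to 40.2), against 5.8% of all protein-coding genes. The median gene of the list was 34.0 kb long, and 8.13% of all genes of 30 to 100 kb held one. The peak of SATB1, a chromatin organiser of thymocytes, was 2983 bp long (chr3:18423020-18426002) with a fold of 5.39, and covered the CpG-rich start shown above. The peak of CD8A was 1168 bp long with a fold of 4.61 and covered a start 73.4% of the way along the gene. In both genes the 5′ end was marked too.

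THEMIS, a signalling adaptor of thymocyte selection, had its internal peak 38.3 kb from a gene end, with a length of 1071 bp and a pileup of 31.2, and no H3K4me3 at either end of the gene. CD5, an inhibitory surface receptor of T cells, had a 1670-bp peak of fold 6.40 and CD8B a 917-bp peak of fold 3.74, both without H3K4me3 at the gene's ends. CD4 carried a 475-bp peak of fold 6.77. None of these 4 peaks had an annotated start within 1 kb, and of the 4 genes the table lists starts for THEMIS only. CD1D, an antigen-presenting molecule of cortical thymocytes, had an 881-bp peak of fold 4.49 over an annotated start and no H3K4me3 at its ends. TOX, a thymocyte regulator on chromosome 8, had a 434-bp peak with a pileup of 38.2.

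Among the 47 genes listed because alternative internal promoters are well described for them, 11 held an internal peak (23.4%, 12.3 to 38.03), and 7 of the 11 had it on an annotated start. The share over all protein-coding genes was 5.8%, and it was 12.6% for those of 100 to 300 kb, where the list's median of 117 kb lies. Among all protein-coding hosts, 248 of 530 with neither end marked (46.8%) had a peak on an annotated start. Of the 632 with an end marked, 270 (42.7%) did. In RUNX1, a haematopoietic factor whose proximal promoter lies far inside the gene, the peak (chr21:34886154-34890104) was the longest of all 1408 at 3951 bp, with a fold of 4.22, and lay 159 kb from the 5′ end. Its edge lay 1102 bp from the nearest end of any protein-coding or lncRNA gene. With a window of 2.5 kb it would be a gene-end peak. FOXP1, a forkhead repressor, had a 2667-bp peak over a start 82.6% of the way along and a second, start-free peak at 72.1%. DNMT3A, a de novo DNA methyltransferase with a known short isoform, had a 2058-bp peak of fold 8.88 over a start at 79.3%. The 5′ ends of RUNX1, FOXP1 and DNMT3A were marked as well.

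NFATC1 and PDE4A, an activation factor of T cells and a cAMP phosphodiesterase, were marked inside and at neither end within 1 kb. NFATC1 had a 1096-bp peak of fold 7.77 over a start and PDE4A a 2776-bp peak of fold 5.62 over a start. They lay 3779 and 2080 bp from the nearest gene end, so the PDE4A peak would be a gene-end peak with a window of 2.5 kb. PRDM1, which encodes BLIMP1, had a 358-bp peak of fold 3.51 over a start, and a start-free 886-bp peak of fold 2.15. ETV6, SEPTIN9 and NRXN3 had internal peaks without a start within 1 kb, and NRXN2, with no start in the table, had 2.

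Of 49 haematopoietic transcription factors 10 held an internal peak (20.4%, 10.2 to 34.3), against 5.8% of all protein-coding genes. At the list's median gene length of 107 kb the share over all genes of 100 to 300 kb, 12.6%, was within this interval. Of the 10, RUNX1, ETV6, FOXP1, NFATC1, SATB1 and TOX also count in the T-lineage, internal-promoter or tumour suppressor list. The shares of these lists are therefore not independent. ELF1, an ETS factor of lymphoid cells, held 4. Of these the 2706-bp peak covered a start with a fold of 2.44, and the other three, of 306, 456 and 2855 bp, had no start nearby. Its relative ELF2 had a 2726-bp peak of fold 4.63 over a start at 78.2% of the gene. NFATC2 had a 2046-bp peak of fold 3.35 over a start and no mark at its ends. IKZF3, an Ikaros family factor, had a 335-bp peak, and the table lists no start for it.

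Chromatin regulators had internal peaks in 14 of 52 genes (26.9%, 15.6 to 41.0), against 5.8% of all protein-coding genes and 12.6% of those of 100 to 300 kb. The median gene length of the list was 101 kb, and 9 of the 14 had a peak on an annotated start. Over all protein-coding hosts that share was 46.8% with neither end marked and 42.7% with an end marked. KDM2A, a CXXC-domain H3K36 demethylase, had a 1087-bp peak of fold 10.8 over a start 87.4% of the way along the gene. Its paralogue KDM2B had a 1956-bp peak of fold 7.56 over a start and a start-free peak of fold 6.43. TET1, a 5-methylcytosine oxidase, had a 2042-bp peak of fold 7.44 over a start at 30.5%. In these 3 genes the 5′ end was marked too.

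Some of these chromatin genes had H3K4me3 inside and none within 1 kb of an end. In the list, 47 of 52 had H3K4me3 at an end, and the other five were SETD1B, NSD1, KDM4C, TET3 and HDAC7. All 5 held an internal peak, whereas over all protein-coding genes 530 of the 10133 without end H3K4me3 did. By gene length that share was 4.78% at 10 to 30 kb, 9.22% at 30 to 100 kb, 10.8% at 100 to 300 kb and 6.91% above. The peaks of NSD1 (1490 bp, fold 6.02) and KDM4C (2288 bp, fold 4.13) covered an annotated start. Those of HDAC7 (2934 bp, fold 7.38) and TET3 (889 bp, fold 2.83) had a start within 1 kb, and both genes had further internal peaks. SETD1B, for which the table lists no start, had a 1066-bp peak of fold 3.03. These peaks of HDAC7, TET3 and NSD1 lay 1498, 1907 and 2018 bp from the nearest gene end, so a window of 2.5 kb would count them as gene-end peaks, while those of SETD1B and KDM4C lay 8172 and 36239 bp away. JAK1, the kinase of gamma-chain cytokine receptors, had the same arrangement, with a 1463-bp peak of fold 3.90 over a start 43.3% of the way along and no H3K4me3 at either end.

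With JAK1, 4 of 27 kinase and cytokine genes held an internal peak (14.8%, 4.19 to 33.7), against 5.8% of all protein-coding genes and 8.13% of those of 30 to 100 kb, at a list median of 55.0 kb. STAT5B, the signal transducer of IL-7, had a 2002-bp peak of fold 4.09 over the start shown above. PIK3R1, the regulatory subunit of PI3 kinase, had a weak 1094-bp peak of fold 1.96 over a start 84.8% of the way along the gene. BCL2, the anti-apoptotic gene, had a 3715-bp peak of fold 5.77 without a start, 83.2 kb from a gene end. Of 26 T-ALL tumour suppressors 5 held a peak (19.2%, 6.55 to 39.4), RUNX1, ETV6, DNMT3A, FBXW7 and NF1, at a list median of 87.8 kb. The same shares of 5.8% and 8.13% apply, and the interval reaches below the latter. Of 23 T-ALL transcription factor oncogenes 1 did (4.35%, 0.110 to 21.9), NOTCH1, with a 598-bp peak of fold 3.93. The median gene of that list was 7.52 kb long, and 0.966% of all genes under 10 kb held a peak.

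DNA replication genes held none (0 of 27, upper bound 12.8%) and housekeeping genes 1 of 30, GPI. H3K4me3 stood at an end of 26 and of 30 of them. The median gene in these lists was 36.8 and 7.16 kb long. Of all protein-coding genes, 8.13% of those of 30 to 100 kb and 0.966% of those under 10 kb held a peak. Myeloid markers held 0 of 18, B-lineage markers 1 of 15 (PAX5, a 197-bp peak of fold 3.58), erythroid and megakaryocyte markers 1 of 15 (EPOR, 876 bp, fold 5.62), and liver, neuronal and muscle markers 0 of 24. The median myeloid gene was 9.13 kb long. In the B-lineage, the erythroid and the tissue lists the medians were 18.2, 17.5 and 18.2 kb, and 4.51% of all genes of 10 to 30 kb held a peak. For every list in this paragraph the exact interval includes the 5.8% of all protein-coding genes. The lists differ in gene length, some share genes such as RUNX1 and DNMT3A, and no list was tested against another.

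**Figure D4:**
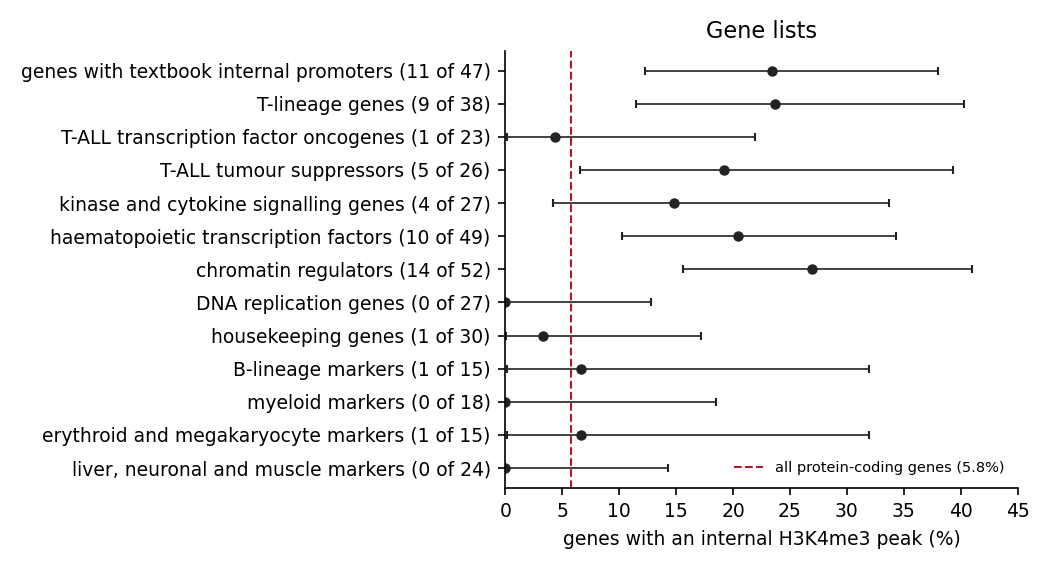
Share of genes in each list that held an H3K4me3 peak inside the gene body (%), with exact 95% intervals as error bars and the share over all protein-coding genes (5.8%) as a dashed line. Chromatin regulators (26.9%), T-lineage genes (23.7%) and genes with textbook internal promoters (23.4%) stand highest, and DNA replication genes, myeloid markers and liver, neuronal and muscle markers stand at 0. Some lists share genes.

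Some genes held many internal peaks. Of the 1162 protein-coding hosts 131 held 2 or more, 22 held 3 or more and 4 held 5 or more, namely AHRR, BCOR, LDLRAD4 and CSMD1. In AHRR, the repressor of the aryl hydrocarbon receptor, 5 peaks of 1391 to 2717 bp and of fold 2.87 to 4.49 lay along the gene, none near an annotated start, and the gene's 5′ end was unmarked. In BCOR, a BCL6 corepressor gene on the X chromosome, 5 peaks of 645 to 3942 bp followed a marked 5′ end, and none overlapped H3K4me1. In LDLRAD4, an inhibitor of TGF-beta signalling, all 5 peaks overlapped H3K4me1. TBCD, a tubulin cofactor, held 4, with no start near any of them. All 4 lay in H3K4me1 peaks of 11.8 to 26.1 kb.

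H3K4me1 around the internal peaks was read from the whole deposited list. An H3K4me1 peak overlapped 757 of 1408 (53.8%, 51.1 to 56.4), against 46.8% of all H3K4me3 peaks on the main chromosomes. Within 2 kb on both sides it was found at 962 (68.3%, 65.8 to 70.7), against 59.4% of all. With the upper part of the H3K4me1 list by q, at or above its median −log10 q, the shares of internal peaks were 30.8% and 30.5%. They were 8.66% and 8.52% with the list trimmed to the size of the H3K4me3 list. The shares of all H3K4me3 peaks were not computed at these settings. The peak midpoint itself was inside H3K4me1 at 397 (28.2%, 25.9 to 30.6), against 11.7% of all H3K4me3 peaks, 7.77% of those at gene ends and 31.7% of those between genes. H3K4me1 peaks covered 4.80% of the 1540 Mb of gene bodies outside the end windows.

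The internal peaks differed in this respect by whether a start lay inside them. The midpoint was inside H3K4me1 at 55 of 523 peaks with a start (10.5%, 8.02 to 13.5) and at 274 of 695 without one nearby (39.4%, 35.8 to 43.2). At the 120 peaks with a start within 1 kb but none inside, it was 35 (29.2%, 21.2 to 38.2). A whole peak lay inside an H3K4me1 peak in 8.80% with a start inside and 36.4% without one nearby. An overlap of any part was found at 47.2% and 58.0%. H3K4me1 on both sides differed less, at 65.2% (60.9 to 69.3) and 71.2% (67.7 to 74.6). The classes thus differed more at the centre of the peak than over any part of it or at its sides.

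Length moved with this difference, since peaks without a start were shorter, so it was read within length classes. Among peaks of 1 to under 2 kb the midpoint was inside H3K4me1 in 6.32% (3.72 to 9.93) of 269 with a start and 22.4% (16.3 to 29.6) of 165 without, and in 4.55% of gene-end peaks. Among peaks of 500 to 999 bp it was 21.6% (14.5 to 30.1) and 44.7% (38.3 to 51.3). Below 500 bp only 16 peaks had a start, and the order was the other way, at 68.8% (41.3 to 89.0) and 51.7% (45.1 to 58.1), with overlapping intervals.

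Around the peaks the profile of H3K4me1 had 2 shoulders. With a start, H3K4me1 covered 39.6% of positions 1 kb upstream, 10.6% at the midpoint and 44.2% 1 kb downstream, oriented by the strand of the start. Without a start these were 56.3%, 39.4% and 54.1%, in genome orientation, so the dip at the centre was shallower. The downstream flank was covered more often than the upstream one in the 520 oriented peaks, 84.8% (81.4 to 87.8) against 72.9% (68.8 to 76.7). At 5 kb from the midpoint 27.6% and 32.2% of positions were still inside H3K4me1 for peaks without a start, against 16.2% upstream and 23.3% downstream for those with one.

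**Figure D5:**
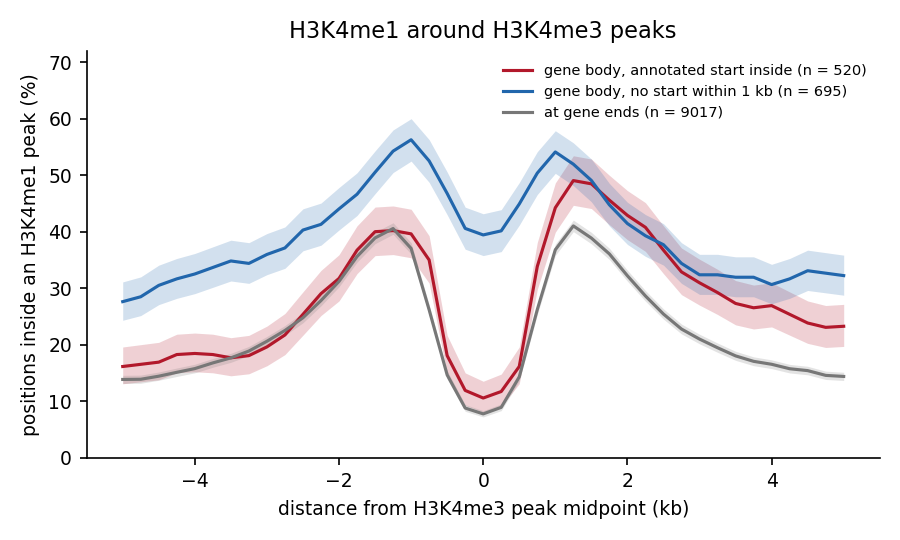
Share of positions inside an H3K4me1 peak (%) by distance from the H3K4me3 peak midpoint in kb, for 520 gene-body peaks with annotated starts on 1 strand (oriented 5′ to 3′), 695 with no start within 1 kb and 9017 gene-end peaks (both in genome orientation), with exact 95% intervals shaded. The midpoint value is 10.6% with a start, 39.4% without and 7.77% at gene ends.

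The H3K4me1 peaks that overlapped the internal peaks were longer where no start was near. The longest overlapping H3K4me1 peak had a median length of 3.62 kb without a start and 1.85 kb with one. Internal peaks wholly inside H3K4me1 peaks of 10 kb or more numbered 102, of which 78 had no start nearby and 6 contained one. IGSF9B held a second internal peak in such a stretch, a 3532-bp H3K4me3 peak inside 14.3 kb of H3K4me1.

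In strength the internal peaks resembled those at gene ends. The median fold was 4.46 inside genes, 4.56 at gene ends and 4.22 between genes, and the median pileup was 13.3, 13.5 and 12.7. The median length was 965 bp (quartiles 530.75 and 1505.25) inside genes and 1458 bp for gene-end peaks under 4 kb. After PAX6 and IGSF9B the highest folds were in RALGDS, a Ral exchange factor (14.3, 512 bp), and CCND3, the D-type cyclin of T-cell progenitors (14.0, 1663 bp), where the peak covered a start and its edge lay 1084 bp from the gene end.

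The longest internal peaks often held a start, 7 of the 10. Besides RUNX1 they included HIVEP3 (3854 bp), SLC3A2, the heavy chain of the CD98 amino acid transporter (3830 bp), KLF12 (3828 bp), AMD1, an enzyme of polyamine synthesis (3810 bp), ANKRD28 (3697 bp) and FBXL5 (3703 bp, in a span shared with FAM200B). MSI2, an RNA-binding regulator of haematopoietic stem cells (3945 bp), BCOR and BCL2 had none.

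The internal peaks farthest from any gene end were short in several cases. In PARD3, a cell polarity gene, a 223-bp peak lay 292 kb from the nearest end, and in ERBB4, a receptor tyrosine kinase gene, a 260-bp peak lay 236 kb away, both inside H3K4me1. In UTRN, the dystrophin paralogue, a 1030-bp peak with a start within 1 kb and a 270-bp peak lay 269 and 267 kb from an end. In DAB1 a 2316-bp peak 236 kb from an end covered an annotated start and had no H3K4me1 within 2 kb on either side. In INPP4B, a phosphoinositide phosphatase gene, the 2695-bp peak lay 156 kb away and covered the CpG-poor start shown above, with a fold of 5.33.

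Pileup differed by chromosome. Of the 10 internal peaks with the highest pileup, 6 were on chromosome 8, led by OXR1 at 43.6 and TOP1MT at 40.4, and 2 of the 10 with the highest fold were. The median pileup was 15.3 for the 70 peaks on chromosome 8, 13.5 on the other autosomes together and 7.78 on the X chromosome. By single chromosome the median pileup was higher than on chromosome 8 on chromosomes 19 (16.5), 22 (16.1), 6 (16.0) and 16 (15.5), so chromosome 8 stood out among the highest peaks and not by its median. The background that the caller set against each peak, read as the pileup plus 1 over the fold, had medians of 3.64, 3.003 and 2.32. The median folds were 4.21, 4.54 and 3.44. The part of the background in the pileup differences was not tested.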

How the data were processed

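Peaks came from the authors' deposited tables, called per library with MACS2 2.1.0.20150731 in broad mode against the shared input, with q limits of 0.05 and 0.1 and 1 tag kept per position, per the file headers. The submitters' processing notes name GRCh38 as the build, and how reads were aligned is not given in the sources used here. For each peak the authors deposited the pileup, a mean coverage signal, the fold enrichment, a ratio over local background, and −log10 of p and q. These are the authors' own peak scores, compared only inside the H3K4me3 list.

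Gene spans (20037 protein-coding, 18303 lncRNA) and the 300-base start windows came from RefSeq GRCh38.p14. Spans carry no exons, so exonic and intronic positions were not told apart. Distances run from the peak edge to the nearest end. Marks overlapped from 1 bp, and flanks were 2 kb. Shares carry exact Clopper-Pearson 95% intervals. Chromosome 8 starts were not used here. Observed to expected CpG is the CG count times the window length over the product of C and G counts. Python 3.11.15, numpy 2.4.6, pandas 2.3.3, scipy 1.17.1 and matplotlib 3.10.9 were used, and the overlap code was tested on simulated intervals.

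The peak set and the 13 gene lists were chosen with earlier results of these data known. Named genes were the hosts of the 10 peaks of highest fold, highest pileup, greatest length and greatest distance, the 10 genes with most peaks, the 10 highest-fold hosts without H3K4me3 at their ends, peaks over microRNA genes, list members (up to 8 a list) and peaks at the limits of the rule. List members beyond these, and the genes whose windows are printed, were chosen after their values were seen. The split by annotated start was also added after the data were seen. The YY1 core replaced a longer form of that motif after the values of the longer form were seen. A gene that the naming rule would name is not reported here.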

Additional observations from a re-analysis of the deposited data

How the results depend on the processing

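Each mark had 1 library, so depth and replicate spread could not be separated from the values. No paired analysis was possible because no group had more than 1 sample and no result came from a test. The share of hosts without H3K4me3 at either end was 39.7% with end windows of 2.5 kb and 71.0% with H3K4me3 peaks of −log10 q of at least 10, where fewer gene-end peaks are left too. The matching shares over all protein-coding genes were not computed. The q limit kept 601 internal peaks in 520 protein-coding genes, with a median pileup of 19.1 and H3K4me1 on both sides of 71.4%. The median distance to an end was 11094 bp with windows of 2.5 kb, 7237 bp with the ends of genes of every type and 9597 bp with the q limit. H3K4me1 values depended most on how much of that list entered. With its upper part by q, 30.8% of internal peaks overlapped H3K4me1 and 30.5% had it on both sides, and with the H3K4me1 list trimmed to the size of the H3K4me3 list 8.66% and 8.52%. Requiring 50% of the peak to be covered gave 28.3%, and allowing a gap of 1 kb gave 87.7%. Flanks of 1 and 5 kb gave 63.4% and 72.4% with H3K4me1 on both sides. Among alternatives chosen after seeing the data, 45.1% of peaks held a start where all hosts were in the table, and 48.1% held a start or had one within 1 kb. The midpoint was inside H3K4me1 in 5.54% with a start and 23.6% without for the upper part of that list, and in 6.32% and 22.4% for peaks of 1 to under 2 kb. Dropping the length limit and taking protein-coding hosts only moved no value beyond its interval or, for counts, 1.5 times. Requiring the whole peak inside 1 gene span is no check, since a peak inside a gene and clear of its ends always lies within the span.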

Other observations

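Internal peaks with lncRNA hosts only numbered 125. The strongest was in LOC124903662 on chromosome 16, with a 421-bp peak of fold 13.2 and pileup 37.3 that lay wholly inside H3K4me1, 3126 bp from a gene end. CCDC26, a lncRNA gene of chromosome 8 known from myeloid leukaemia, held a 796-bp peak with a pileup of 35.3. Among protein-coding hosts of high pileup, CEACAM21, an adhesion molecule gene, had a 231-bp peak with a pileup of 39.4 inside H3K4me1, and NR2F6, an orphan nuclear receptor of T cells, a 799-bp peak with a pileup of 36.9. These peaks were short: 6 of the 10 with the highest pileup and 5 of the 10 with the highest fold were under 500 bp.

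MicroRNA genes lay under 7 of the 1408 internal peaks, and no snoRNA gene did (0, upper bound 0.262%). In EML2 the 789-bp peak was centred 56 bp from the hairpin of MIR330, and in the span shared by DNAJB1 and TECR the 1487-bp peak was centred 115 bp from MIR639. The other five microRNAs were MIR658 in ANKRD54, MIR4505 in MIDEAS, MIR7845 in KLF7, MIR4513 in CSK and MIR4785 in RBMS1, 389 to 791 bp from the peak midpoint. In 6 of the 7 peaks an annotated start of the host was present as well, RBMS1 being the exception, so the mark cannot be assigned to the microRNA.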
